A study of Mus musculus with 10 samples.

Results

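Solute carriers are membrane proteins that move nutrients, ions, metals and metabolites across the plasma membrane and the membranes of organelles. The 181 solute carrier genes described here are those whose symbol is Slc followed by a family number, letters and a member number, and whose mean level reached 5 CPM (the gene's share of the library's counts, scaled to 1000000) in at least 1 of 4 groups of developing B cells. They are 181 of 357 such symbols among the 23420 genes in the files, and they fall into 44 families. RNA was sequenced from pre-B cells of small light scatter (small pre-B, sorted as B220+ IgM- CD43-) and pro-B cells (B220+ IgM- CD43+) sorted from C57BL/6 mouse bone marrow. The groups were small pre-B Mta2 KO (3 libraries), small pre-B control (3), pro-B Mta2 KO (2) and pro-B control (2). Mta2 encodes a component of NuRD, a complex that remodels nucleosomes and removes histone acetylation, and the knockout label names Vav, a driver known to act across the blood lineages. The labels give no age, sex, litter, animal or further allele, nor what the controls carry, so p-values measure the spread between these libraries. Further genotypes named in the series design were not analysed here.

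Early B cells pass from a growing and dividing pro-B and large pre-B state to small pre-B cells, which have left the cell cycle and rearrange the immunoglobulin light chain genes. Growing lymphocytes take up essential amino acids through the exchanger of the light chain Slc7a5 and the heavy chain Slc3a2, glutamine through Slc1a5, and glucose through members of the Slc2 family. Zinc is moved out of the cytosol by the Slc30 family and into it by the Slc39 family. The inner mitochondrial membrane is crossed through the Slc25 family, and nucleotide sugars enter the Golgi and endoplasmic reticulum through the Slc35 family.

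The members were chosen by their mean CPM in these libraries, so levels are a description. Of the 181, 138 reached 5 CPM in all 4 groups, and 9, 18 and 16 reached it in exactly 3, 2 and 1 of them. By group, 147 did so in small pre-B KO cells, 146 in small pre-B controls, 170 in pro-B KO cells and 168 in pro-B controls. The members just inside the threshold were Slc39a4, Slc6a8, Slc25a29 and Slc35f2, whose highest group means were 5.19, 5.25, 5.30 and 5.33 CPM. Just outside it were Slc4a10, Slc22a21, Slc25a26 and Slc16a4, at 4.87, 4.80, 4.35 and 4.15 CPM, and 37 symbols had 0 counts in every library. A further 10 symbols continue past the pattern, such as Slc9a3r1 and Slc7a6os, and are not members.

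Total counts ranged from 17805507 to 25821264 in small pre-B KO libraries, from 18502193 to 38392136 in small pre-B controls, and from 48860391 to 52127004 in pro-B libraries, and a floor of 3 counts corresponded to at most 0.169 CPM. For Mta2, KO libraries 1 to 3 of small pre-B cells read 199, 179 and 198 CPM against 438, 246 and 412 CPM in their controls, and at 163 and 166 CPM in pro-B KO libraries against 436 and 375 CPM in theirs, log2 fold changes of -0.93 (edgeR adjusted p = 0.042) and -1.31 (0.212). Its counts are summed over all exons, whether or not they lie in a deleted segment. Small pre-B KO libraries 1 and 2 held 2518 and 2941 CPM of Xist and 8.13 and 0.0790 CPM of 4 Y-linked genes, whereas Xist stayed at or under 31.4 CPM and the Y-linked sum lay between 224 and 674 CPM in the other 8. Markers of other cells were lower in the small pre-B gate than in the pro-B gate. The sum of 12 myeloid markers was 222 to 480.0 CPM in small pre-B KO libraries, 129 to 380.0 CPM in small pre-B controls, 16000 and 23700 CPM in pro-B KO libraries, and 10300 and 10200 CPM in pro-B controls. The sum of 8 plasmacytoid dendritic cell markers was 312 to 619 CPM in small pre-B and 3870 to 4510 CPM in pro-B libraries, that of 8 T and natural killer cell markers 7.58 to 128 against 510.0 to 662 CPM, and that of 9 B lineage markers 8570 to 12600 against 1450 to 2210 CPM. No myeloid, T and natural killer or B lineage marker was at 0 counts in any library, and up to 2 of the dendritic cell markers were at 0 in small pre-B libraries. The part of other cells in the results below was not tested. The library of small pre-B control 3 carries another number in its file header than in its title. It also stands apart: the mean chi-square per gene of its counts, which also grows with depth, was 214 to 299.9 against the other small pre-B libraries, which differed from each other by 24.8 to 62.1. Without it 48 carriers were higher and 65 lower between the stages in controls, beside 8086 of 13811 genes called in either direction. In the same fit 10 carriers differed between KO and control small pre-B cells, beside 280 of 13811 genes. The counts with that library are given below.

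The members together took 1.04% to 1.24% of all counts of a library, and a few carriers made up much of their RNA. Per kilobase of exon, the median member averaged 8.81 CPM over the 4 groups, with a range from 0.315 for the sodium-calcium exchanger Slc8a1 to 339 for the glutamine transporter Slc1a5, and the 10 highest members held 40.8% of the summed level. Other high members were the choline transporter-like protein Slc44a2 at 221 CPM per kb, the mitochondrial ADP/ATP carrier Slc25a5 at 172, the mitochondrial phosphate carrier Slc25a3 at 125 and the neutral amino acid transporter Slc38a2 at 88.01. The order differed between the stages as a description: Slc1a5 was at 525 CPM per kb in small pre-B controls and 138 in pro-B controls, while Slc44a2 was at 127 in small pre-B controls and 297 in pro-B controls. Amino acid and peptide carriers took 0.405% to 0.438% of the counts in small pre-B KO libraries, 0.313% to 0.418% in small pre-B controls and 0.267% to 0.273% in pro-B libraries. Carriers of vitamins, nucleosides and lipids went the other way, with 0.0764% to 0.101% in the 6 small pre-B libraries and 0.189% to 0.217% in the 4 pro-B libraries.

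The first comparison set small pre-B controls against pro-B controls. In the small pre-B cells 44 carriers were higher, 65 were lower and 72 did not pass the threshold, an adjusted p of 0.05 (edgeR quasi-likelihood F-test over all 14161 genes tested, Benjamini-Hochberg adjustment). Of all genes tested, 26% were higher and 29.4% were lower in the same comparison, against 24.3% and 35.9% of the carriers. The median log2 fold change was -0.14 for the carriers and -0.02 for all genes tested. The level rule fixes part of this count, because a carrier kept for its level in the pro-B groups alone had to be lower in small pre-B cells: among the 138 carriers at 5 CPM in all 4 groups, 39 were higher and 36 lower, while among the other 43, 5 were higher and 29 lower. Among all 9087 genes at 5 CPM in all 4 groups, 2923 were higher and 2129 lower. Levels are shares of a library, so a change in the cells of a type and a change in RNA per cell cannot be told apart, and neither can the cell stage and any handling that all libraries of a stage shared.

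**Figure D1:**
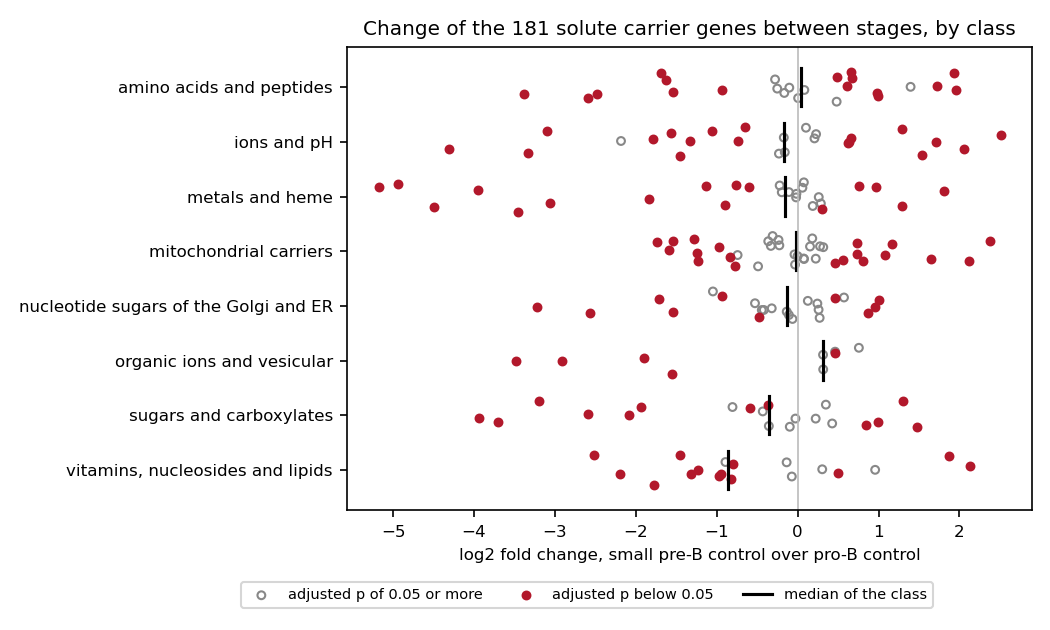
Log2 fold change of each of the 181 carriers between small pre-B controls (3 libraries) and pro-B controls (2 libraries), by functional class; filled points passed an adjusted p of 0.05 (edgeR) and bars are class medians. Every class holds carriers on both sides of 0, and the classes of vitamins, nucleosides and lipids and of sugars and carboxylates have the lowest medians, -0.86 and -0.36.

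Of 24 amino acid and peptide carriers 9 were higher and 7 lower in small pre-B controls, where 26% and 29.4% of all genes were. The glutamine transporter Slc1a5 (mm10 chromosome 7, 16781346 to 16798274) read at 1745, 1473 and 1127 CPM in small pre-B controls 1 to 3 against 413 and 347 CPM in pro-B controls 1 and 2. All small pre-B controls lay above both pro-B controls, as libraries did not overlap for 72.9% of the carriers and 73.0% of all genes in this comparison, with means 3.81-fold apart and a log2 fold change of 1.93 (SE 0.22, edgeR adjusted p = 0.00011). Slc38a9, the lysosomal arginine sensor of the mTOR complex, stood at 311, 324 and 253 CPM in small pre-B controls against 82.1 and 96.9 CPM in pro-B controls. Its groups did not overlap either, and it rose by a log2 fold change of 1.72 (SE 0.17, edgeR adjusted p = 5.42e-05). The glutamine and alanine importers Slc38a1 and Slc38a2 rose by 0.49 and 0.61 on the log2 scale, and Slc36a4, a proton-independent tryptophan and proline transporter, rose by 1.96.

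The exchanger of large neutral amino acids was lower in both of its subunits. The light chain Slc7a5 (chromosome 8, 121881146 to 121907686) read at 15.2, 19.9 and 10.9 CPM in small pre-B controls against 87.6 and 83.4 CPM in pro-B controls. That is 5.58-fold lower, with every small pre-B control below every pro-B control (log2 fold change -2.48, SE 0.29, edgeR adjusted p = 0.000139). The heavy chain Slc3a2, which brings Slc7a5 and other light chains to the cell surface, stood at 46.5, 39.7 and 40.7 CPM in small pre-B controls against 121 and 125 CPM in pro-B controls, or 2.91-fold lower (edgeR adjusted p = 3.56e-05). The cationic amino acid importer Slc7a1 stood at 25.8 ± 8.2 CPM in small pre-B controls and 79.9 ± 1.6 CPM in pro-B controls (SD, n = 3 and 2), a log2 fold change of -1.63 (edgeR adjusted p = 0.00296). Slc7a6, another light chain partner of Slc3a2, stood at 51.3, 52.4 and 52.5 CPM in small pre-B controls and 56.1 and 55.7 CPM in pro-B controls and did not pass (log2 fold change -0.10, SE 0.10). Slc43a2, a facilitated transporter of large neutral amino acids that needs no heavy chain, rose to 231 ± 28.2 CPM in small pre-B controls, against 118 ± 6.45 CPM in pro-B controls. The taurine transporter Slc6a6 fell by 0.94 on the log2 scale, and the lysosomal histidine and peptide transporter Slc15a3 by 1.69, with exons that overlap Tmem132a over 87 bases.

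Genes of the amino acid stress response, which the factor ATF4 drives, were read as a separate list that holds no solute carrier. Of 15 such genes 0 were higher and 11 lower past the threshold in small pre-B controls, against 26% and 29.4% of all genes. Their median log2 fold change was -1.06, and that of all genes tested was -0.02. Shmt2, of mitochondrial serine metabolism, fell by 1.38, the stress sensor Sesn2 by 1.63 and asparagine synthetase, Asns, by 2.49, whereas the transcript of Atf4 itself stood at 246, 244 and 277 CPM in small pre-B controls against 252 and 250 CPM in pro-B controls. A list of 16 regulators of growth and nutrient sensing holds Slc38a9. In it 7 were higher and 5 lower, where 26% and 29.4% of all genes were. Mtor was higher by 1.61, and the transcription factor gene Myc was lower, with a log2 fold change of -3.54.

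Among carriers of sugars and carboxylates 4 of 20 were higher and 8 lower, where 26% and 29.4% of all genes were. The neuronal-type glucose transporter Slc2a3 (chromosome 6, 122727809 to 122742745) stood at 12.7, 14.3 and 10.7 CPM in small pre-B controls against 107 and 124 CPM in pro-B controls. Its groups were 9.18-fold apart without overlap (log2 fold change -3.20, SE 0.27, edgeR adjusted p = 2.3e-05). The lysosomal hexose transporter family member Slc2a6 fell by 3.94 on the log2 scale. It reached 5 CPM in pro-B groups alone, so its direction was fixed by the level rule. Slc2a1, the glucose transporter known from activated lymphocytes, stood at 18.8, 21.6 and 19.7 CPM in small pre-B controls and 24.6 and 26.8 CPM in pro-B controls and did not pass (log2 fold change -0.36, SE 0.14, edgeR adjusted p = 0.0601). Slc2a8, an intracellular hexose transporter, and Slc5a3, the sodium-coupled myo-inositol transporter, rose by 0.999 and 1.30, and the exons of Slc5a3 share 145 bases with Mrps6 on the same strand.

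Slc16a1, which carries lactate and pyruvate with a proton, read at 304, 257 and 339 CPM in small pre-B controls against 122 and 93.2 CPM in pro-B controls, a log2 fold change of 1.48 (SE 0.19, edgeR adjusted p = 0.000201). Slc16a3, the lactate exporter of highly glycolytic cells, stood at 1.06, 1.01 and 2.07 CPM in small pre-B controls against 17.4 and 19.4 CPM in pro-B controls, or 13.3-fold lower (edgeR adjusted p = 5.06e-05). Of the 6 Slc16 members 1 was higher and 4 were lower, where 26% and 29.4% of all genes were. However, the 4 lower ones (Slc16a3, Slc16a7, Slc16a10 and Slc16a13) reached 5 CPM in pro-B controls and in no small pre-B group, so their direction was fixed by the level rule. Slc16a10, which carries aromatic amino acids, stood at 3.81 ± 0.952 CPM in small pre-B controls and 16.1 ± 1.19 CPM in pro-B controls, and Slc16a7, a high affinity pyruvate transporter, was at 0.915 ± 0.404 and 5.50 ± 0.513 CPM in the same order. The RefSeq promoter window of Slc16a1 (GRCm38.p6, plus strand, chr3:104638414-104638713) is shown because this carrier rose between the stages and its window holds a searched motif; capitals mark an E-box, CACGTG, the palindromic site read by MYC and related factors.

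Slc16a1: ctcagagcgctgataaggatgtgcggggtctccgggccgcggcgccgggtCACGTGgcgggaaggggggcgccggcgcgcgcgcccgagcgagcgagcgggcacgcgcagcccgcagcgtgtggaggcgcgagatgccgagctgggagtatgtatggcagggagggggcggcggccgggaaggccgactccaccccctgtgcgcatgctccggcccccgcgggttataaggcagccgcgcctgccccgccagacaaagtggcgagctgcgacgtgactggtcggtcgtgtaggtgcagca

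Windows of 300 bases that run from upstream of a transcript start into the transcript were found for 136 of the 181 carriers (184 windows). CACGTG, which reads the same on both strands, was in 25 of these windows (13.6%) and in 7.15% of all 32851 RefSeq windows. The amino acid response element TGATGNAA, searched on both strands, was in 2.17% of the carrier windows and 3.97% of all windows, and the cyclic AMP response element TGACGTCA in 2.17% and 1.79%. Neighbouring sites of different motifs can share end letters and were counted separately. All windows were counted whatever the level of the gene, and no share was computed for genes at the level of the carriers. These are matches of letters and no binding was measured.

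Carriers of metals and heme held the 3 largest decreases of the comparison, those of Slc11a1, Slc41a2 and Slc40a1, with 5 of 26 higher and 11 lower. Of the 6 Slc30 members, which move zinc out of the cytosol, 4 were higher and 0 lower, and of the 11 Slc39 members, which bring zinc in, 0 were higher and 6 lower, where 26% and 29.4% of all genes were. Of those 6, Slc39a8, Slc39a11 and Slc39a14 reached 5 CPM in pro-B controls and in no small pre-B group, so their direction was fixed by the level rule. Slc39a4 reached it in pro-B KO cells alone, and stood at 3.31 and 3.53 CPM in pro-B controls. The 5 other Slc39 members did not pass. Slc30a5, which loads zinc into the secretory pathway, stood at 331, 287 and 329 CPM in small pre-B controls against 163 and 159 CPM in pro-B controls, without overlap (log2 fold change 0.97, SE 0.13, edgeR adjusted p = 0.000234). Slc30a4 rose by 1.29, Slc30a9 by 0.75 and Slc30a7 by 0.30, and 2 members, Slc30a1 and Slc30a6, did not pass. The importer Slc39a14, which carries zinc and non-transferrin-bound iron, stood at 5.07, 4.19 and 4.37 CPM in small pre-B controls against 66.8 and 73.8 CPM in pro-B controls, or 15.5-fold lower (edgeR adjusted p = 6.02e-06). Slc39a11 fell by 3.45 on the log2 scale and Slc39a6 by 0.90, while Slc39a7, which releases zinc from the endoplasmic reticulum, was at 110 ± 13.9 and 126 ± 0.648 CPM and did not pass.

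Iron carriers also moved apart. Slc11a2, the importer that passes iron out of endosomes after transferrin uptake, read at 128, 126 and 102 CPM in small pre-B controls against 33.9 and 33.6 CPM in pro-B controls (log2 fold change 1.81, SE 0.17, edgeR adjusted p = 3.76e-05). The mitochondrial iron importer Slc25a37 stood at 247, 207 and 141 CPM in small pre-B controls against 85.9 and 91.04 CPM in pro-B controls, a log2 fold change of 1.16. Slc40a1, ferroportin, which exports iron from macrophages and other cells, stood at 1.39, 1.33 and 0.597 CPM in small pre-B controls against 22.2 and 26.7 CPM in pro-B controls, or 22.1-fold lower (edgeR adjusted p = 0.000196). Slc11a1, the phagosomal metal transporter of macrophages, was at 0.502, 0.322 and 0.142 CPM against 8.63 and 13.2 CPM in pro-B controls, and Slc41a2, a magnesium transporter, at 3.46, 4.31 and 2.70 against 105 and 109 CPM (30.6-fold lower, edgeR adjusted p = 2.06e-06). Slc40a1 and Slc11a1 are members through the pro-B groups alone, and these decreases stand beside a myeloid marker sum of 129 to 380.0 CPM in small pre-B controls and 10200 to 10300 CPM in pro-B controls.

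**Figure D2:**
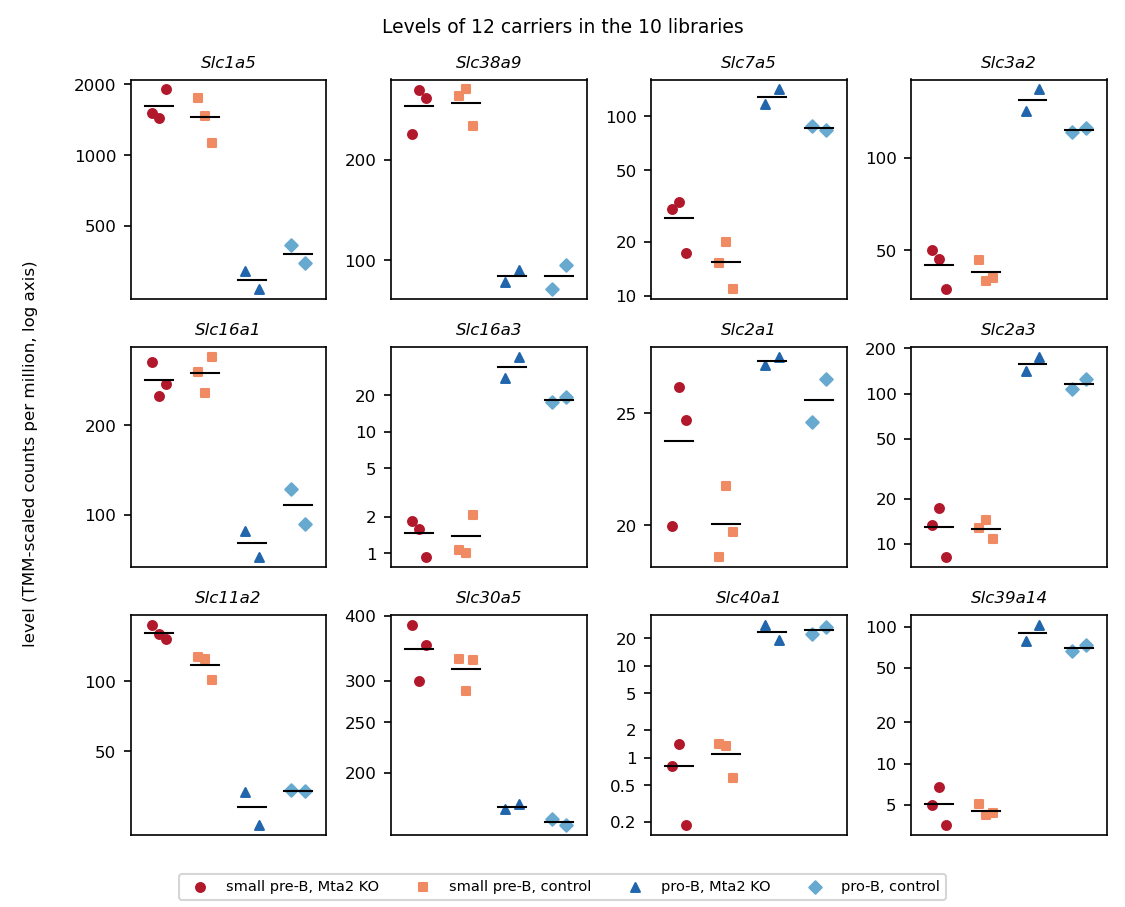
Levels (TMM-scaled CPM, log axis) of 12 amino acid, monocarboxylate, glucose and metal carriers in each of the 10 libraries; points are libraries and bars group means, with small pre-B KO (3) and control (3) to the left of pro-B KO (2) and control (2). Slc1a5, Slc38a9, Slc16a1, Slc11a2 and Slc30a5 lie higher in all small pre-B libraries than in any pro-B library, and Slc7a5, Slc3a2, Slc16a3, Slc2a3, Slc40a1 and Slc39a14 lie lower. The stages did not overlap for 72.9% of carriers and 73.0% of all genes in controls, and for 80.7% and 75.9% in KO.

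Ion and pH carriers included 8 higher and 10 lower of 25, where 26% and 29.4% of all genes were. Slc12a3, a sodium-chloride cotransporter known from the kidney, stood at 80.01 ± 29.6 CPM in small pre-B controls and 14.01 ± 2.36 CPM in pro-B controls, and the sodium-bicarbonate cotransporter Slc4a7 rose by 1.53. The endosomal exchanger Slc9a9 fell by 3.34, whereas the organellar exchanger Slc9a7 rose by 1.71. Slc9a7 stood at 43.97, 51.2 and 118 CPM in small pre-B controls against 21.6 and 21.9 CPM in pro-B controls, and without control 3 its log2 fold change was 1.13. The phosphate importer Slc20a1 fell by 0.73 (edgeR adjusted p = 0.0275), a call that did not hold without control 3 (adjusted p = 0.0589). Slc4a1, the anion exchanger of red cells, stood at 10.8, 1.85 and 1.17 CPM in small pre-B controls and 18.95 and 21.7 CPM in pro-B controls and did not pass; the sum of 5 measured erythroid markers was 15.3, 2.34 and 3.01 CPM in the same small pre-B controls and 20.6 and 25 CPM in the pro-B controls.

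Mitochondrial carriers, the largest class, were near the share of all genes (26% and 29.4%), with 10 of 36 higher and 9 lower. Slc25a51, which brings NAD into mitochondria, stood at 565, 487 and 434 CPM in small pre-B controls against 157 and 159 CPM in pro-B controls (log2 fold change 1.65, SE 0.15, edgeR adjusted p = 3.02e-05). Slc25a36, a pyrimidine nucleotide carrier, rose by 1.07. The aspartate-glutamate carriers Slc25a12 and Slc25a13, which belong to the malate-aspartate shuttle, both fell, by 1.54 and 1.29, and the citrate carrier Slc25a1 fell by 0.78. Slc25a39, known for glutathione import, fell by 1.25. The most abundant members per kilobase did not pass: the ADP/ATP carriers Slc25a4 and Slc25a5 were at log2 fold changes of -0.24 and -0.31 and the phosphate carrier Slc25a3 at 0.08.

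Carriers of vitamins, nucleosides and lipids were 3 higher and 10 lower of 18, where 26% and 29.4% of all genes were. The concentrative purine nucleoside transporter Slc28a2 stood at 153, 120.4 and 153 CPM in small pre-B controls against 32.4 CPM in each pro-B control, a log2 fold change of 2.13 (SE 0.13, edgeR adjusted p = 6.51e-06). The equilibrative nucleoside transporters went the other way: Slc29a1, of the plasma membrane, was at 41.2, 69.7 and 31.02 CPM against 117 and 119.5 CPM in pro-B controls (log2 fold change -1.32, edgeR adjusted p = 0.00982), and Slc29a3, of lysosomes, at 46.3, 40.8 and 31.3 against 173 and 189 CPM (-2.20). The ascorbate transporters also parted, with Slc23a1 at 16.7 ± 2.71 CPM in small pre-B controls and 4.56 ± 0.953 CPM in pro-B controls, and Slc23a2 at 31.9 ± 7.64 and 56.4 ± 2.17 CPM. Slc44a2 fell by 1.23, the reduced folate carrier Slc19a1 by 0.97 and the lysosomal transporter Slc46a3 by 2.52.

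In the secretory pathway 4 of 23 carriers of nucleotide sugars and related substrates were higher and 6 lower, against 26% and 29.4% of all genes. The UDP-N-acetylglucosamine transporter Slc35a3 and the sulfate donor transporter Slc35b3 rose by 1.01 and 0.96, and the CMP-sialic acid transporter Slc35a1 by 0.87. Both Slc35c members fell, Slc35c2 by 1.72 and the GDP-fucose transporter Slc35c1 by 0.93. Slc35d2 stood at 0.712 ± 0.674 CPM in small pre-B controls and 6.65 ± 0.348 CPM in pro-B controls. It is a member through the pro-B groups alone, so this direction was fixed by the level rule. Of 9 organic ion and vesicular carriers 1 was higher and 4 were lower, although the class median was 0.31. Slc22a15 and Slc22a23 fell by 3.48 and 2.91, and the lysosomal sialic acid exporter Slc17a5 rose by 0.46. Both Slc22a15 and Slc22a23 reached 5 CPM in pro-B groups alone, so their direction was also fixed by the level rule. Of 20 measured carriers that bear other names 5 were higher and 6 lower, again beside 26% and 29.4% of all genes. Among them were the phosphate exporter Xpr1 (0.91 higher) and the sphingosine-1-phosphate exporter Spns2 (2.41 higher).

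The same stage difference was then measured in the libraries labelled Mta2 KO, which still held 163 to 199 CPM of Mta2. Between small pre-B KO and pro-B KO libraries 42 carriers were higher and 63 lower (edgeR quasi-likelihood), where 24% and 27.3% of all genes were, and the median of the carriers was -0.16 against -0.02 for all genes. The KO comparison shares no library with the control comparison. Of the calls, 37 carriers were higher in both, 56 were lower in both and 0 were called in opposite directions, while 16 were called in controls alone, 12 in KO alone and 60 in neither. Of all genes tested, 55.4% were called in controls and 51.3% in KO. Their calls were not counted side by side, so whether the carriers share more calls than other genes was not tested. The 181 carriers are not independent of each other. Across them, the log2 fold changes of KO and control had Pearson's r = 0.934 and Spearman's rho = 0.944. Pearson's r was 0.872 across all genes tested. The genes tested include some below the level rule of the carriers, and no r was computed for genes at the carriers' level. Whether r was higher for the carriers than for such genes was therefore not tested. The sign was the same for 157 carriers and for 12391 of the 14161 genes tested. Small pre-B KO libraries held 1516, 1439 and 1904 CPM of Slc1a5 against 321 and 269.8 CPM in pro-B KO libraries, 30.3, 33.2 and 17.3 CPM of Slc7a5 against 116 and 141 CPM, and 328, 251 and 275 CPM of Slc16a1 against 87.9 and 72.2 CPM. In each of these 3 carriers the small pre-B KO libraries lay on the same side of both pro-B KO libraries as in controls. Libraries did not overlap for 80.7% of the carriers and 75.9% of all genes in the KO comparison.

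**Figure D3:**
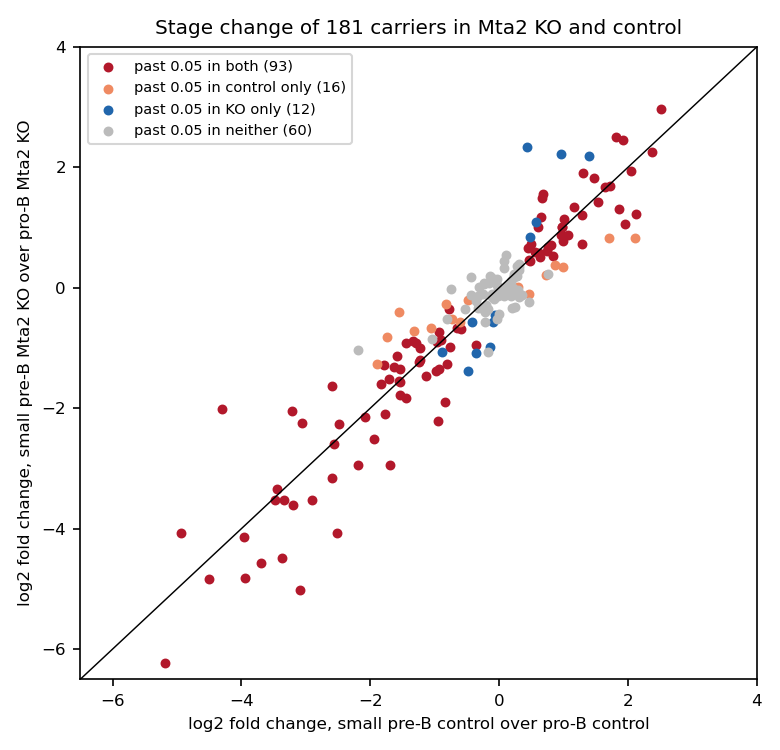
Log2 fold change of 181 carriers from pro-B to small pre-B cells in Mta2 KO libraries (y axis) and in controls (x axis), coloured by whether each passed an adjusted p of 0.05 (edgeR); the line marks equal change. The 37 carriers called higher in both and the 56 called lower in both lie on the same side of 0, and the points away from the line include Slc46a3 and Slc9a2. The sign was the same for 157 of the 181 carriers and for 12391 of 14161 genes tested.

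In pro-B cells 0 of the 181 carriers differed between Mta2 KO and control past the threshold by edgeR, where 0.0353% of all genes did. An unadjusted edgeR p below 0.05 was found for 15 carriers and for 913 of 14161 genes. DESeq2 called 3 carriers (181 of 18100 genes), limma-voom 3 (148 of 14161 genes), and edgeR fitted on the 4 pro-B libraries alone 13 (856 of 14060 genes). The smallest p belonged to the glycine transporter Slc6a9 (chromosome 4, 117835258 to 117869305), which read at 12.9 and 9.20 CPM in pro-B KO libraries against 2.52 and 2.70 CPM in pro-B controls (log2 fold change 2.08, SE 0.34, edgeR adjusted p = 0.167). The KO and control libraries did not overlap, which held for 58.6% of the carriers and 55.5% of all genes. It is a member through pro-B KO cells alone, so its direction was in part fixed by the level rule. Without small pre-B control 3 in the fit its adjusted p was 0.0284, and its exons overlap Ccdc24 over 46 bases. The copper carrier Slc31a2 was at 27.7 and 31.98 CPM in KO against 18.4 and 19.4 CPM in controls, the creatine transporter Slc6a8 at 4.28 and 4.18 against 1.59 and 1.67 CPM, and the fatty acid transport protein Slc27a4 at 71.4 and 77.8 against 44.3 and 42.0 CPM, with edgeR adjusted p of 0.331, 0.353 and 0.416. The mitochondrial carrier Slc25a35 was lower, at 8.35 and 7.85 CPM in KO against 13.6 and 12.7 CPM in controls (adjusted p = 0.596). The myeloid marker sum was 16000 and 23700 CPM in these KO libraries against 10300 and 10200 CPM in the controls.

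In small pre-B cells 12 carriers differed between Mta2 KO and control by edgeR, 7 higher and 5 lower, where 1.89% and 1.14% of all genes were. The carrier median was -0.00489 and that of all genes 0.00586 on the log2 scale, and 60 carriers had an unadjusted p below 0.05, as did 3494 of 14161 genes. Among the 138 carriers at 5 CPM in all 4 groups 4 were higher and 2 lower, and among the other 43, 3 and 3. Of all 9087 genes at 5 CPM in all 4 groups, 108 were higher and 109 lower. The strongest call was Slc46a3 (chromosome 5, 147878441 to 147894802), a lysosomal transporter, which was at 1.96, 2.65 and 2.38 CPM in KO libraries against 6.97, 5.68 and 6.76 CPM in controls. Every KO library lay below every control, with means 2.78-fold apart (log2 fold change -1.47, SE 0.15, edgeR adjusted p = 0.00918). The purine nucleoside transporter Slc28a2 was at 82.8, 88.2 and 80.4 CPM in KO against 153, 120.4 and 153 CPM in controls, or 1.69-fold lower (edgeR adjusted p = 0.0254). Both KO and control small pre-B libraries stood above the pro-B libraries, which held 32.4 to 37.1 CPM of it.

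Carriers of neutral and cationic amino acids were among those higher in the KO. Slc43a1 (chromosome 2, 84839408 to 84863586), which carries large neutral amino acids, was at 78.04, 62.7 and 56.0 CPM in KO libraries against 27.1, 34.1 and 21.8 CPM in controls (log2 fold change 1.25, SE 0.19, edgeR adjusted p = 0.0254). Slc7a7, a light chain that exports cationic amino acids with Slc3a2, was at 54.7, 40.3 and 41.5 CPM in KO against 22.4, 23.1 and 16.4 CPM in controls (log2 fold change 1.14, SE 0.18, edgeR adjusted p = 0.0254). Its exons overlap Oxa1l on the opposite strand over 228 bases. The groups did not overlap in either gene. Slc3a2 itself was at 50.01, 46.8 and 37.4 CPM in KO and 46.5, 39.7 and 40.7 CPM in controls. Of the 15 stress response genes 1 was higher in the KO and 0 lower, where 1.89% and 1.14% of all genes were. The higher one was Ddit3, at 30.6, 32.7 and 48.1 CPM in KO against 16.8, 22.6 and 15.4 CPM in controls.

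The 5 other carriers that were higher included low ones with large folds. Slc45a3, a member of the sugar transporter family Slc45, was at 14.9, 10.4 and 12.2 CPM in KO libraries against 0.446, 1.97 and 0.284 CPM in controls (13.9-fold higher, log2 fold change 3.79, SE 0.66, edgeR adjusted p = 0.0268). It was kept for its level in small pre-B KO cells alone, so its difference was in part fixed by the rule, and Slc9a2 for its level in pro-B KO cells alone. The sodium-proton exchanger Slc9a2 was at 2.31, 1.78 and 0.699 CPM in KO against 0.334, 0.161 and 0.0568 CPM in controls (log2 fold change 3.24, SE 0.66, edgeR adjusted p = 0.0413). Its value in control 3 lies under the floor of 3 counts of that library, 0.0781 CPM. Slc41a2 was at 6.29, 6.84 and 7.69 CPM in KO against 3.46, 4.31 and 2.70 CPM in controls, the citrate carrier Slc25a1 at 62.4, 54.2 and 59.3 against 38.5, 41.2 and 34.7 CPM, and the fatty acid transport protein Slc27a1 at 88.3, 68.9 and 73.3 against 54.7, 48.7 and 36.3 CPM. Slc41a2 and Slc27a1 lay below every pro-B library in both small pre-B groups, while the highest small pre-B KO library of Slc25a1 reached above the lowest pro-B control, at 61.3 CPM.

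The remaining carriers that were lower in the KO were 2 mitochondrial carriers and a sugar transporter. Slc25a27, an uncoupling protein, was at 5.19, 4.50 and 5.22 CPM in KO libraries against 24.5, 11.5 and 12.2 CPM in controls (log2 fold change -1.69, SE 0.29, edgeR adjusted p = 0.0275). It is a member through small pre-B controls alone, so this direction was in part fixed by the level rule. Slc25a35 was at 2.83, 3.04 and 3.50 CPM in KO against 8.30, 6.77 and 5.03 CPM in controls, and Slc45a4 at 15.4, 16.1 and 16.03 against 27.6, 23.04 and 21.5 CPM. Slc25a35 read lower in KO than in control libraries in pro-B cells as well, where it did not pass. Its exons overlap Rangrf on the opposite strand over 29 bases.

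**Figure D4:**
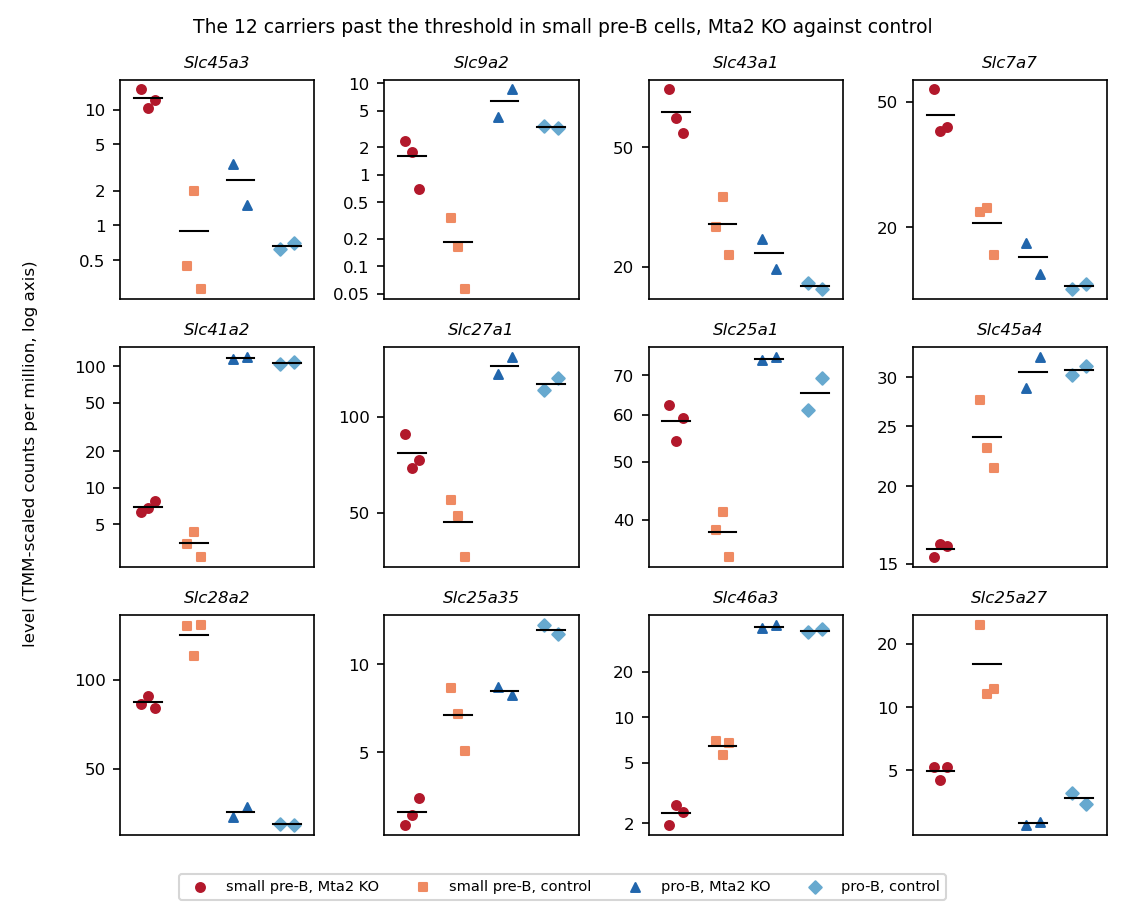
Levels (TMM-scaled CPM, log axis) of the 12 carriers past the threshold between Mta2 KO and control small pre-B cells, in all 10 libraries; points are libraries and bars group means, with KO left of control within each stage. In each panel the 3 small pre-B KO libraries lie wholly above or wholly below the 3 small pre-B controls, as they did for 30.4% of the 181 carriers and 25% of all genes.

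Promoter windows of 4 of the carriers that rose in the KO held a searched motif, and these are shown with the motif in capitals. They were chosen for the motif after the values were known, and the shares of all windows with each motif are given above. Slc27a1 held it in 1 of its 3 windows and Slc7a7 in 2 of its 5, and the windows of Slc28a2, Slc41a2, Slc45a3 and Slc46a3 held none of the motifs. The windows are from RefSeq (GRCm38.p6): Slc43a1 at chr2:84840073-84840372 on the plus strand, Slc25a1 at chr16:17928170-17928469 on the minus strand and Slc27a1 at chr8:71570344-71570643 on the plus strand, each with an E-box, and Slc7a7 at chr14:54417653-54417952 on the minus strand with an amino acid response element.
Slc43a1: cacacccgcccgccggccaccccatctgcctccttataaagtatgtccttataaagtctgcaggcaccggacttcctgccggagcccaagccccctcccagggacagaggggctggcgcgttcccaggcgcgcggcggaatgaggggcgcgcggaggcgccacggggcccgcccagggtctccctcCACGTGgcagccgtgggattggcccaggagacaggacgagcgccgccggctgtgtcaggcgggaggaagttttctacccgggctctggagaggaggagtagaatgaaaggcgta
Slc25a1: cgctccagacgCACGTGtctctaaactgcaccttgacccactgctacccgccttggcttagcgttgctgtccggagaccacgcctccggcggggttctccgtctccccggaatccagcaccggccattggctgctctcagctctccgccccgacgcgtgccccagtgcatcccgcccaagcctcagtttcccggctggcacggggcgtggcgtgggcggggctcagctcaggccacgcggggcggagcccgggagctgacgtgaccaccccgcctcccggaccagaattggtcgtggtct
Slc27a1: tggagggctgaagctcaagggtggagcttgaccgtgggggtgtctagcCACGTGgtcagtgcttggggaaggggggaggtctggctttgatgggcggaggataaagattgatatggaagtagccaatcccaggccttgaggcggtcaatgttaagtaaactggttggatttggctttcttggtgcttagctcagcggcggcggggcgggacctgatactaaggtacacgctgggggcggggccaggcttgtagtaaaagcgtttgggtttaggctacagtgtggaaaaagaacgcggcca
Slc7a7: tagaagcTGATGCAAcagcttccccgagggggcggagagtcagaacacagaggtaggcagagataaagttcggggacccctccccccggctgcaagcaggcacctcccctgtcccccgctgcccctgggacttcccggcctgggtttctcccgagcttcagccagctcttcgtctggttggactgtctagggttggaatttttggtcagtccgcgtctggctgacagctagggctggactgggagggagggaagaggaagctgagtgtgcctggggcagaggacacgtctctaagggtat

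The 12 calls depended on which libraries shared the estimate of the spread. Fitted on the 6 small pre-B libraries alone, edgeR called 0 of them, without small pre-B control 1 or KO 1 it called 0 carriers, without KO 2 or any 1 of the pro-B libraries it called 1, without KO 3 it called 5, without control 3 it called 10, with Slc9a2 (adjusted p = 0.0761) and Slc27a1 (0.054) lost, and without control 2, in which Mta2 was the lowest of the controls, it called 35, among them all 12, beside 1667 of 14357 genes. Calls over all genes moved as well, from 428 of 14161 in the main fit to 0 of 12478 in the 6 small pre-B libraries alone. EdgeR called 1 of 14330 genes without control 1, 4 of 14333 without KO 1 and 18 of 14345 without KO 2. It called 149 of 14353 genes without KO 3 and 280 of 13811 without control 3. DESeq2 called 34 carriers, which included the 12, beside 1821 of 18100 genes, and limma-voom called 12, of which 9 were shared, beside 442 of 14161 genes. Small pre-B KO libraries 1 and 2 also differ from every control in Y-linked RNA and Xist. With those 2 libraries left out, a comparison added after seeing the data in which the spread of KO library 3 is taken from the other groups, 0 carriers passed, and the log2 fold changes were -1.44 for Slc46a3, -0.81 for Slc28a2, 1.02 for Slc43a1, 1.02 for Slc7a7, 3.76 for Slc45a3 and 2.07 for Slc9a2. The sum of T and natural killer cell markers was 67.7, 128 and 55.8 CPM in KO libraries against 49.8, 72.7 and 7.58 CPM in controls, and 3 of the 8 markers, Cd3e, Cd3d and Cd3g, were higher in the KO by edgeR. Cd3e was at 8.13, 16.6 and 5.41 CPM in KO against 0.446, 0.282 and 0.0284 CPM in controls (log2 fold change 5.49, edgeR adjusted p = 0.0207). Its value in control 3 also lies under the floor of 3 counts. The part of these cells in the 12 calls was not tested. The myeloid marker sum was 480.0, 381 and 222 CPM in KO against 380.0, 239 and 129 CPM.

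No carrier showed a difference between the knockout effects of the stages past the threshold: edgeR called 0 of 181, as 0% of all genes. An unadjusted edgeR p below 0.05 was found for 22 carriers and for 907 of 14161 genes. DESeq2 called 4 carriers, beside 56 of 18100 genes. The smallest p belonged to Slc46a3, at 38.8 and 40.3 CPM in pro-B KO libraries and 36.3 and 37.98 CPM in pro-B controls beside the small pre-B values above (difference of log2 fold changes -1.56, SE 0.23, edgeR adjusted p = 0.43). Slc28a2 had a difference of -0.90 (adjusted p = 0.471) and Slc27a4 of -1.28 (adjusted p = 0.533). Slc27a4 read 17.8, 15.1 and 15.2 CPM in KO and 28.4, 16.4 and 22.8 CPM in control small pre-B libraries, with overlapping groups, beside the pro-B values above in which both KO libraries lay above both controls. Without small pre-B control 2 in the fit 3 carriers passed, beside 40 of 14357 genes, each with a negative difference: Slc46a3, Slc28a2 and Slc27a4.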

How the data were processed

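RNA was extracted from sorted cells with RNeasy and sequenced after TruSeq Stranded mRNA preparation, per the labels' protocols. The authors deposited whole-number read counts per gene for each library, made with featureCounts 1.4.3-p1 on an mm10 annotation with no strand option, per the file headers. CASAVA 1.82, STAR and mm9 are named in the submitters' processing notes, so the build of the alignments cannot be told from the sources used here, and positions are those of the files. Without strand, reads of overlapping genes cannot be told apart: exons of 16 carriers overlap those of another gene, 14 of them on the opposite strand. Unused columns of per-sample values numbered 0.

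Genes were filtered with filterByExpr (minimum count 10, minimum total 15), scaled by TMM and fitted over all 10 libraries in 4 groups with the quasi-likelihood F-test of edgeR 4.0.16 in R 4.3.3 (prior count 0.125), with Benjamini-Hochberg adjustment over 14161 genes and a threshold of 0.05. The script was tested on simulated counts. Levels are TMM-scaled CPM, except that the 5 CPM rule used unscaled totals. DESeq2 1.42.0, limma-voom (limma 3.58.1), other scalings, filters, level thresholds, a block of title numbers and leaving out each library were alternatives, and 2 that use Y-linked RNA were added after seeing the data. Floors of 3 counts (0.0576 to 0.1685 CPM) cover counting error only.

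Members, classes and lists were chosen with earlier results of these data known. Named carriers are the 12 largest calls per direction and comparison whose groups do not overlap (or the 5 smallest p where under 3 pass), up to 4 with the smallest p and the 3 highest in each class, carriers known in lymphocytes or as markers, and those next to the level threshold. Of the last set, Slc22a3 reached at most 1.39 CPM and is no member. Further members of the families described, and examples from the lists, were named after their values were seen. Promoter windows came from RefSeq tables (GRCm38.p6). Some results are not reported here because the items they name are withheld.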

Additional observations from a re-analysis of the deposited data

How the results depend on the processing

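Stage counts kept within 1.5 times of their size under every alternative but one: with a fold limit of 1 on the log2 scale, 68 carriers (20 higher, 48 lower) differed between small pre-B and pro-B controls, against 109 without that limit. Leaving out 1 library gave 87 to 113 carriers in controls and 78 to 122 in KO. For KO against control in pro-B cells, 13 carriers (10 higher, 3 lower) passed in the fit of those libraries alone, 3 with limma-voom and 3 with DESeq2, and 0 to 1 without 1 library. For KO against control in small pre-B cells, 0 passed in the fit of those libraries alone, 0 in libraries with Y-linked RNA, 0 with Y-linked RNA as a covariate, 8 with that fold limit, 8 at a level of at least 20 CPM, 34 (16 higher, 18 lower) with DESeq2, and 0 to 35 without 1 library, the 35 without control 2. For the difference between the knockout effects, 4 passed with DESeq2 and 0 to 3 without 1 library. Calls over all genes moved too, as given above for small pre-B cells. The cause of these changes was not tested, beyond the fewer libraries in some fits.

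The labels do not say whether libraries of the same title number are paired. In small pre-B cells, deviations of same-numbered KO and control libraries from their group means correlated at 0.102, 0.155 and 0.045. Each small pre-B library correlated best with its own number, and pairs of unlike number ranged from -0.111 to 0.002. Deviations cancel within a group, so these correlations are not independent. In pro-B cells, with 2 libraries per group, they mirror each other, so both same-numbered pairs give the same value, 0.015, and cannot decide the question. With the number as a replicate block 4 carriers passed in small pre-B cells (3 higher, 1 lower), Slc46a3, Slc43a1, Slc9a2 and Slc7a7, and 0 in pro-B cells and 0 for the difference. No paired analysis was possible for the stage comparisons because the stages share no number.

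Of 1795 recomputed values of named carriers 1601 kept their direction and side of the threshold, 168 lost the call, 24 gained it and 2 reversed. The reversed ones had not passed: between the stages in controls, Slc12a2 ranged from -0.083 to 0.20 without 1 library (negative without small pre-B control 3) and Slc25a3 from -0.027 to 0.206 (negative without small pre-B control 1). In that comparison the calls of Slc17a9, Slc20a1, Slc38a1, Slc38a2, Slc43a1 and Slc9a7 were lost under some alternatives.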

Other observations

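Carriers that bear other names were also read in small pre-B KO and control libraries. Of 20 measured, 0 were higher and 1 was lower, where 1.89% and 1.14% of all genes were. The lower one was Sfxn2, a mitochondrial sideroflexin, with a log2 fold change of -1.18 (edgeR adjusted p = 0.0407). Of 16 regulators of growth and nutrient sensing 0 were higher and 0 were lower in the same comparison, by edgeR.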
